A study of Mus musculus with 24 samples.

Results

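The cell cycle and DNA replication genes described here are 52 genes matched by symbol in a table of 56691 genes, each found on 1 line. They fall into 18 S phase genes, 23 mitotic genes, 4 genes of entry from G1 (Ccnd1, Ccne1, Ccne2, Cdk2), 4 transcription factors (E2f1, E2f8, Foxm1, Mybl2) and 3 inhibitors of cyclin-dependent kinases (Cdkn1a, Cdkn2a, Cdkn2c). Read counts came from mice of mixed C57BL/6 and SV129 background, operated on at 8 weeks of age and killed on day 3.5 of pregnancy. Surgery either induced endometriosis, the growth of uterine tissue at other sites, or was a sham. The 6 groups of 4 libraries are sham uterus (sham), uterus of mice that had endometriosis (eutopic) and the ectopic tissue of such mice (lesions), each at 1 month and at 3 months after surgery. The labels call the sham and eutopic uteri Rosa26mTmG/+ and the lesions Pgrcre/+Rosa26mTmG/+, whereas the series text gives Pgrcre/+Rosa26mTmG/+ for the mice with endometriosis. Pgrcre places Cre recombinase under the progesterone receptor gene, and Rosa26mTmG is a fluorescent Cre reporter. Genotype therefore cannot be told apart from tissue by the labels, or from surgery by the series text. By the labels, mice with endometriosis were subfertile at 3 months, and the other groups were fertile. Mice at 3 months were also older than mice at 1 month.

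A cell that commits to division passes from G1 into S phase, when it copies its DNA, and then through G2 into mitosis. Cyclins D and E with their kinases release E2F factors from the retinoblastoma protein, and E2F factors switch on genes for replication licensing (Cdc6, Cdt1, the Mcm helicase), for the replication fork (Pcna, Pola1, Prim1) and for nucleotide supply (Rrm2, Tyms, Tk1). Later, B-Myb (Mybl2) and Foxm1, with the MuvB complex, act at CHR elements to induce mitotic genes such as Cdk1, Ccnb1, Cdc20, Top2a and Plk1. Cdkn1a (p21) and the products of Cdkn2a oppose this sequence and are widely used as signs of cell cycle arrest. On day 3.5 of mouse pregnancy, progesterone halts division in the uterine epithelium while stromal cells divide.

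Promoters of these genes hold motifs through which E2F factors and MuvB are known to act, the E2F site and the CHR element. They also hold the CCAAT box, which is not a site of the factors above. In RefSeq promoters of build GRCm38.p6, which is not the build of the deposited counts (mm39), the 250 bases before each annotated start were searched on both strands. The motifs were the E2F site (TTTCCCGC, TTTGGCGC, TTTCGCGC or TTTGCCGC), the CHR element (TTTGAA or TTCGAA) and the CCAAT box (CCAAT). The table held 43 of the 52 genes, some with more than 1 start. An E2F site was present in 6 of 18 windows of S phase genes (33.3%) and 1 of 19 windows of mitotic genes (5.26%), beside 1.86% of all 32851 windows in the table. A CHR element was present in 11.1% of the S phase windows and 42.1% of the mitotic windows, beside 17.1% of all windows. A CCAAT box was present in 77.8% and 89.5%, beside 33.8% of all windows. In the wider lists described last, E2F sites were in 17.6% of the 34 windows of further S phase genes and in 30.4% of windows of further G1 and checkpoint genes, and CHR elements in 20.6% of the further S phase and 37.0% of the further mitotic windows. E2F spellings can overlap one another, and base composition was not matched. The 6 promoters below belong to genes on which the comparisons turn, and each is printed from 150 bases before the start to the last base before it, with capitals marking every match that lies within those bases. Cdc6 and Mcm5 are S phase genes with an E2F site. Top2a and Cdc20 are mitotic genes with CHR elements and CCAAT boxes, Cdk1 has all 3 motifs, and Tyms has none of them in the window.
Cdc6, chr11:98908001-98908150, plus strand: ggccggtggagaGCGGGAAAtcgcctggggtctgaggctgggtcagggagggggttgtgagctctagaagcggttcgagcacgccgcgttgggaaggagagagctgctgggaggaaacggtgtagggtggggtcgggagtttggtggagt
Mcm5, chr8:75109359-75109508, plus strand: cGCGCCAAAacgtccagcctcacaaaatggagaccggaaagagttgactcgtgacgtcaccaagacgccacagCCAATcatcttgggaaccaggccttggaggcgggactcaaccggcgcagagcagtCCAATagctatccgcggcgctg
Top2a, chr11:99024190-99024339, minus strand: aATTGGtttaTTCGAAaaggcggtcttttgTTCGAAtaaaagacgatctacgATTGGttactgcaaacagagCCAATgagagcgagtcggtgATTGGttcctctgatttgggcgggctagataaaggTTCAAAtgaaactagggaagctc
Cdc20, chr4:118437344-118437493, minus strand: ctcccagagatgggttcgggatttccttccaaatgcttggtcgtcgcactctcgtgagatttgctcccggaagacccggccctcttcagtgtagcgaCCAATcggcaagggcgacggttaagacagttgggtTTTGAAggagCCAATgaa
Cdk1, chr10:69352913-69353062, minus strand: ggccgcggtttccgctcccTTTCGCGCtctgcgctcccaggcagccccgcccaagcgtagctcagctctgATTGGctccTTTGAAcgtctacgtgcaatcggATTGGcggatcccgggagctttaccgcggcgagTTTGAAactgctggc
Tyms, chr5:30073626-30073775, minus strand: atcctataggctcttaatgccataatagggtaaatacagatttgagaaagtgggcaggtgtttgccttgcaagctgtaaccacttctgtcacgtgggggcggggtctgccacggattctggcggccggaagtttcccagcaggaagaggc
The matches describe letters only, and no binding was measured.

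**Figure D1:**
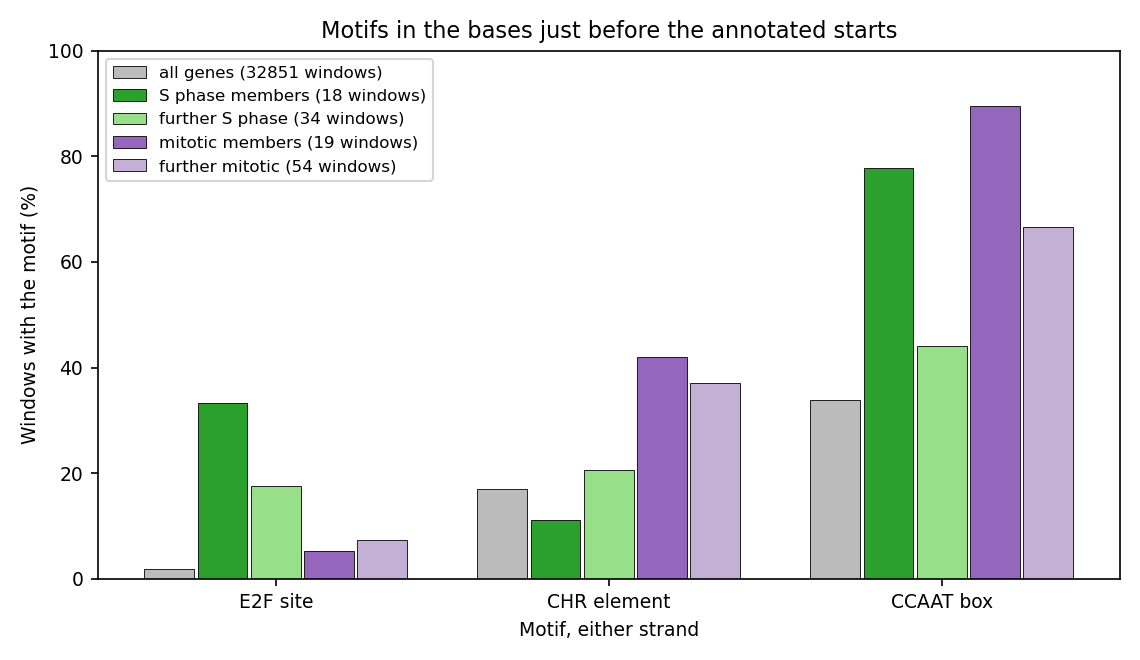
Share of promoter windows (percent, 250 bases before the annotated start, either strand) that hold each motif, for all genes in the RefSeq table, the S phase and mitotic genes, and wider lists of 38 further S phase and 56 further mitotic genes. E2F sites stand in 33.3% of S phase windows and CHR elements in 42.1% of mitotic windows, beside 1.86% and 17.1% of all windows.

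Total counts ran from 4.51e+07 to 5.94e+07 per library. Levels are given as CPM, the counts scaled to a common library total after TMM normalization over all 24 libraries. A gene was called where the Benjamini-Hochberg adjusted p from edgeR's quasi-likelihood test was under 0.05, over 21208 genes for the uterine groups and 22249 genes for comparisons with lesions. Differences are log2 fold changes with their standard error (SE). The labels do not tie libraries to separate animals, so p-values measure the spread between these samples. For comparisons with lesions that spread was estimated over all 24 libraries and not the compared groups alone. Libraries of 1 group correlated at 0.837 to 0.975 for lesions at 3 months and at 0.978 to 0.986 for eutopic uterus at 3 months. Markers of the uterus summed to 1447 to 1844 CPM in the 16 uterine libraries. Lesions held 909 to 1421 CPM of them at 1 month, whereas at 3 months the range was 149 to 913 CPM. Among lesions at 3 months, replicate 1 held 17154 CPM of ovary markers, and replicates 2, 3 and 4 held 40257, 12447 and 6620 CPM of skeletal muscle markers. Replicate 2 of the lesions at 1 month held 75669 CPM of pancreas markers. In bulk tissue, fewer dividing cells and less RNA of these genes per cell cannot be told apart.

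S phase and mitotic transcripts moved together in most libraries. An index for each role was the mean over its genes of log2 CPM minus the gene's mean over the 24 libraries. The S phase index was -0.08 ± 0.10 (SD, n = 4) in sham, -0.09 ± 0.14 in eutopic uterus and 0.35 ± 0.26 in lesions at 1 month. At 3 months it was 0.31 ± 0.50 in sham, 0.00 ± 0.14 in eutopic uterus and -0.50 ± 0.40 in lesions. The mitotic index was -0.19 ± 0.60, -0.07 ± 0.23 and 0.35 ± 0.31 at 1 month, and 0.41 ± 0.48, 0.15 ± 0.17 and -0.65 ± 0.72 at 3 months, in the same order. For both roles the mean was lowest in lesions at 3 months and was highest in lesions at 1 month and sham at 3 months, with overlapping spreads in those last groups.

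Single libraries set much of that spread. Sham replicate 4 at 3 months had the highest indices of all, 1.06 for S phase and 1.09 for mitosis, and was the highest of its group for all 18 S phase and all 23 mitotic genes. Lesion replicate 3 at 1 month had 0.72 and 0.81 and was also the highest of its group for all 41 of these genes. Lesion replicate 2 at 3 months had the lowest indices, -1.08 and -1.71, and was the lowest of its group for 15 of 18 S phase and 23 of 23 mitotic genes. In sham replicate 2 at 1 month the roles parted: it was the lowest of its group for 23 of 23 mitotic genes but for 7 of 18 S phase genes, with indices of -1.03 and -0.17. The S phase index minus the mitotic index was 0.86 in that library and 0.63 in lesion replicate 2 at 3 months, and lay between -0.31 and 0.22 in the other 22 libraries. In 38 further S phase and 56 further mitotic genes the same difference was 0.64 and 0.67 in those libraries, and -0.21 to 0.27 in the others. Across the 24 libraries, which share groups and scaling, the correlation of a gene's log2 CPM with that of Mki67 had a median of 0.90 over 22 mitotic genes, 0.80 over 18 S phase genes and -0.07 over the 3 inhibitors. These correlations only describe the libraries.

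**Figure D2:**
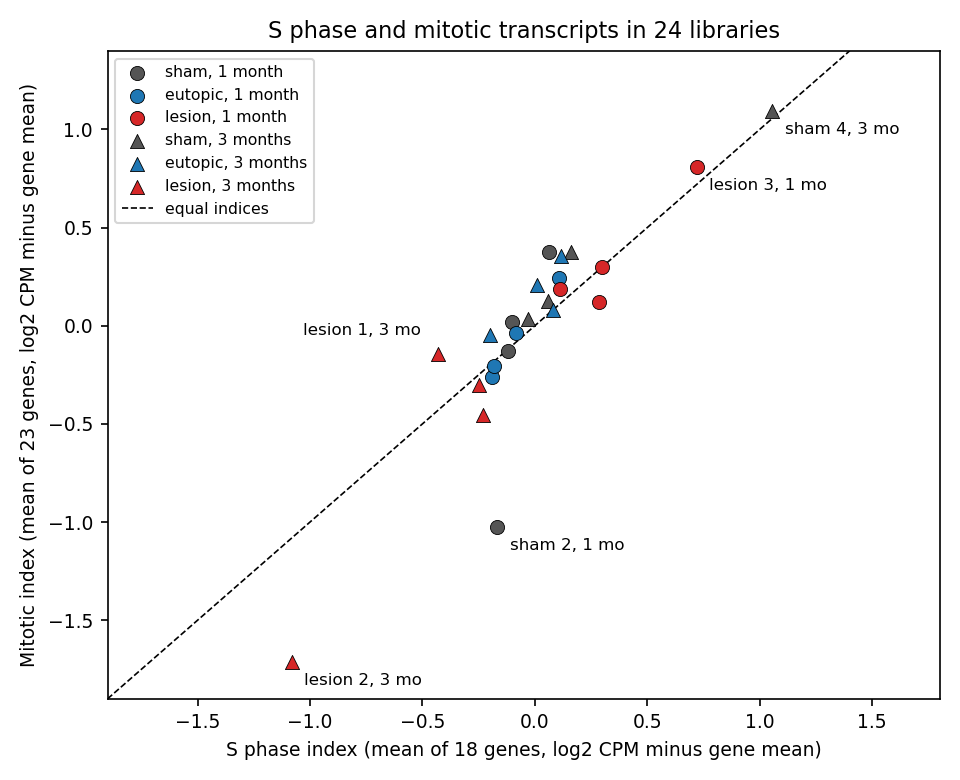
Mitotic index against S phase index in each of the 24 libraries, in log2 units relative to each gene's mean, with circles for 1 month, triangles for 3 months and the dashed line where both are equal. Most libraries lie along the line, while sham replicate 2 at 1 month and lesion replicate 2 at 3 months lie below it, with mitotic indices of -1.03 and -1.71.

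In the uterus, endometriosis went with no called change of these genes at 1 month. None of the 52 genes was called by edgeR, beside 0.00943% of all genes, and 1 of 52 had an unadjusted p under 0.05, with a higher value in eutopic uterus, beside 2.34% of all genes. DESeq2 and limma voom also called 0. The median log2 difference between eutopic and sham uterus was -0.01 over S phase genes and 0.05 over mitotic genes, beside 0.00 over all genes. Among S phase genes the differences ran from -0.22 ± 0.30 for Uhrf1, a reader of hemimethylated DNA, to 0.31 ± 0.14 for Tyms, thymidylate synthase (adjusted p = 0.915 and 0.876). Among mitotic genes they ran from -0.13 ± 0.20 for Top2a, the topoisomerase that untangles sister DNA, to 0.24 ± 0.28 for the survivin gene Birc5 (adjusted p = 0.924 and 0.902).

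At 3 months none of the 52 genes was called between eutopic and sham uterus, beside 0% of all genes, with 0 also from DESeq2 and limma voom. The eutopic level was the lower one for 50 of 52 genes, and 9 had an unadjusted p under 0.05, beside 2.76% of all genes lower at that threshold. Those 9 were 6 S phase genes, 1 G1 gene and 2 factors, with no mitotic gene among them. Cdc6, which loads the Mcm helicase, stood at 10.0, 9.54, 11.0 and 30.3 CPM in sham and at 9.56, 8.16, 7.90 and 9.95 CPM in eutopic uterus. The groups overlapped, with sham replicate 4 far above the rest, and the difference was -0.78 ± 0.29 (adjusted p = 0.992) with that library and -0.20 without it. The other named differences were -0.03 ± 0.14 for Tyms, -0.44 ± 0.30 for the mitotic kinase Plk1 and -0.19 ± 0.29 for cyclin B2 (Ccnb2). Without sham replicate 4 the medians over S phase and mitotic genes went from -0.39 and -0.33 to -0.06 and -0.04, and 0 of 52 had an unadjusted p under 0.05. The 10 genes of an estrogen-response list summed to 1698 CPM in that library and to 702 to 1033 CPM in the other sham libraries at 3 months. A list of 10 progesterone-response genes summed to 678 CPM there and to 1041 to 1076 CPM in the other sham libraries at 3 months. Whether either list bears on the cell cycle genes was not tested.

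Sham uterus at 3 months held more cell cycle RNA than sham uterus at 1 month by the point estimates, but edgeR called none of the 52 genes, beside 0% of all genes. The difference was positive for 51 of 52, and 31 had an unadjusted p under 0.05 (9 S phase, 15 mitotic, 2 G1, 4 factor genes and Cdkn2a), beside 6.27% of all genes. DESeq2 called 1 of the 52, beside 159 of 21130 genes, and limma voom 2, beside 1036 of 21208 genes, all of them S phase genes. Medians were 0.46 over S phase and 0.60 over mitotic genes, beside 0.01 over all genes. Mki67, the standard marker of cycling cells, stood at 131, 70.9, 146 and 146 CPM at 1 month and at 219, 130, 132 and 282 CPM at 3 months, and the groups overlapped. Its difference was 0.63 ± 0.28 (adjusted p = 0.435). Markers of epithelium and of estrogen response had higher values at 3 months as well, with 8 of 8 epithelial markers positive and 5 at an unadjusted p under 0.05, and 8 of 10 estrogen-response genes positive and 5 at that threshold, but edgeR called none of either list. Epithelial markers summed to 1054, 744, 894 and 881 CPM in sham at 1 month and to 779, 1157, 1381 and 1923 CPM at 3 months. The lowest epithelial sum at 1 month was in replicate 2 and the highest at 3 months in replicate 4. Estrogen-response genes summed to 598, 781, 524 and 800 CPM in sham at 1 month, where replicate 2 was not the lowest. At 3 months they summed to 702, 799, 1033 and 1698 CPM. The part of these markers in the difference was not tested. The extremes were Cdc6 at 0.92 ± 0.29 and the DNA polymerase gene Pola1 at 0.11 ± 0.21 among S phase genes, and the kinesin gene Kif23 at 0.76 ± 0.29 and Top2a at 0.19 ± 0.20 among mitotic genes. Leaving out sham replicate 4 at 3 months reduced the 31 genes at unadjusted p under 0.05 to 5, and leaving out sham replicate 2 at 1 month reduced them to 10. Without both, 5 genes met that threshold, with medians of 0.11 and 0.09, and Pola1 and Top2a took negative values of -0.07 and -0.14.

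Eutopic uterus at 3 months against 1 month gave 0 calls among the 52 genes, beside 0.00943% of all genes, and 0 by DESeq2 and limma voom. Cyclin E2 (Ccne2) was the 1 gene with an unadjusted p under 0.05, beside 1.36% of all genes higher at that threshold. It stood at 9.17, 10.2, 9.20 and 11.4 CPM at 1 month and at 16.3, 15.8, 11.8 and 15.2 CPM at 3 months, without overlap, for a difference of 0.57 ± 0.15 (adjusted p = 1). Differences of S phase genes ran from -0.06 ± 0.24 (Mcm2) to 0.24 ± 0.30 (Uhrf1), and those of mitotic genes from 0.05 ± 0.20 (Top2a) to 0.41 ± 0.29 for the phosphatase gene Cdc25c. The change of the eutopic-sham difference from 1 to 3 months was called for 0 of 52 genes, beside 0.00943% of all genes, with 0 by DESeq2 and limma voom. It was lower for 1 gene, Pcna, at an unadjusted p under 0.05, beside 2.01% of all genes. A processed copy of Pcna, Pcna-ps2, exceeded 500 counts only in sham replicates 2 and 3 at 1 month and sham replicate 4 at 3 months. Reads of Pcna may be shared with it. The change ran from -0.72 ± 0.42 (Mcm10) to -0.03 ± 0.29 (Pola1) over S phase genes and from -0.54 ± 0.42 (Ube2c) to -0.13 ± 0.28 (Top2a) over mitotic genes.

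Lesions at 1 month held more RNA of several genes that start replication than eutopic uterus did, together with more of the inhibitors Cdkn1a and Cdkn2a. Of the 52 genes 8 were called higher (15.4%), beside 12.0% of all genes, and none lower, beside 8.76%. DESeq2 and limma voom also called 0 lower, and 0 were lower at an unadjusted p under 0.05, beside 16.2% of all genes. The 8 were 3 of 18 S phase genes, 1 of 4 G1 genes, 2 of 4 factors and 2 of 3 inhibitors. No mitotic gene was called by edgeR or DESeq2, and limma voom called 5, beside 10013 of 22249 genes in either direction. At an unadjusted p under 0.05, 2 of 23 mitotic and 11 of 18 S phase genes were higher, beside 19.1% of all genes. The share called is close to the background, while medians of 0.49 over S phase and 0.45 over mitotic genes stood beside -0.01 over all genes.

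Cyclin E1 (Ccne1), which drives entry into S phase, stood at 3.94, 4.66, 5.43 and 6.20 CPM in eutopic uterus and at 9.03, 12.8, 14.9 and 9.63 CPM in lesions at 1 month. All 4 lesions lay above all 4 uteri, and the difference was 1.19 ± 0.30 (2.29-fold, adjusted p = 0.00939). Cyclin D1 (Ccnd1), which acts earlier in G1, stood at 143, 95.3, 180 and 156 CPM in eutopic uterus and at 196, 198, 290 and 195 CPM in lesions. Its groups did not overlap either, but the difference of 0.61 ± 0.36 was not called (adjusted p = 0.23).

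Among licensing genes, Mcm5, a subunit of the replicative helicase whose E2F site is printed above, stood at 44.5, 34.1, 36.7 and 45.8 CPM in eutopic uterus and at 53.4, 64.5, 90.5 and 64.8 CPM in lesions. It rose by 0.76 ± 0.25 (1.70-fold, adjusted p = 0.0372). Cdc6 went from 8.12, 6.43, 7.45 and 8.78 CPM to 11.7, 14.0, 20.9 and 11.9 CPM, a rise of 0.93 ± 0.32 (adjusted p = 0.0482). Its partner Cdt1 rose by 0.53 ± 0.19 (adjusted p = 0.0499). All 3 groups of lesion values lay above their eutopic counterparts, with lesion replicate 3 highest each time.

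The other 15 S phase genes did not pass the test, among them 5 of the 6 subunits of the Mcm helicase. Mcm2, Mcm3, Mcm4, Mcm6 and Mcm7 had 0.59, 0.49, 0.48, 0.53 and 0.09 (adjusted p = 0.114, 0.134, 0.0722, 0.0812 and 0.756). Pcna, the sliding clamp, stood at 67.8, 84.3, 83.8 and 91.7 CPM in eutopic uterus and at 79.2, 95.6, 120 and 94.1 CPM in lesions (0.25 ± 0.14, adjusted p = 0.225). Rrm2, the ribonucleotide reductase subunit, stood at 26.9, 27.8, 26.5 and 33.6 CPM and at 33.2, 43.6, 58.9 and 37.6 CPM (0.59 ± 0.23, adjusted p = 0.0727). The difference was -0.08 ± 0.21 for Tyms and -0.24 ± 0.20 for the primase gene Prim1, the only S phase genes with a negative value.

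The factors E2f1 and E2f8, an activator and a repressor of the E2F family, rose by 0.69 ± 0.22 and 1.05 ± 0.34 (adjusted p = 0.0328 and 0.0337). E2f8 stood at 10.4, 9.05, 8.97 and 9.94 CPM in eutopic uterus and at 12.9, 20.8, 25.5 and 20.2 CPM in lesions. Foxm1 had 0.68 ± 0.26 (adjusted p = 0.0672). Mitotic genes had values above 0 for all 23, between 0.10 and 0.68. Mki67 stood at 165, 87.8, 104 and 140 CPM in eutopic uterus and at 178, 176, 257 and 181 CPM in lesions, without overlap (0.68 ± 0.29, adjusted p = 0.105). Top2a overlapped, at 212, 150, 174 and 253 CPM against 215, 206, 324 and 226 CPM (0.30 ± 0.28, adjusted p = 0.459). The mitotic cyclin gene Ccnb1 and its kinase gene Cdk1 had 0.55 ± 0.38 and 0.29 ± 0.31 (adjusted p = 0.31 and 0.539).

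The inhibitor Cdkn1a stood at 16.2, 12.0, 22.3 and 14.2 CPM in eutopic uterus and at 31.8, 60.0, 32.1 and 38.2 CPM in lesions at 1 month. All lesions lay above all uteri, and it rose by 1.32 ± 0.42 (2.50-fold, adjusted p = 0.0295). Cdkn2a, whose overlapping products p16 and p19Arf cannot be separated in counts per gene, stood at 0.473, 0.441, 0.381 and 0.553 CPM in eutopic uterus and at 1.18, 2.16, 0.846 and 0.893 CPM in lesions (1.45 ± 0.50, adjusted p = 0.0466). Cdkn2c, which encodes the D-type inhibitor p18, stood at 30.6, 30.7, 30.3 and 35.5 CPM against 42.6, 32.1, 42.0 and 39.2 CPM (0.30 ± 0.15, adjusted p = 0.154). The calls changed when single libraries were left out. Of the 52 genes 3, 1, 2 and 1 were called higher without eutopic replicates 1 to 4. The counts were 6, 1, 3 and 1 without lesion replicates 1 to 4. Ccne1 was called in all 8 of these fits. Cdc6 was called in none of them, and Cdt1, E2f1 and Cdkn2a each in 1 of them. Calls over all genes, in either direction, moved too: 4705, 2644, 2872 and 2830 without eutopic replicates 1 to 4. They were 4164 and 2707 without lesion replicates 1 and 2, beside 4607 in the reported fit. A fit of these 8 libraries alone, whose spread then comes from the compared groups, called 26 of the 52 higher, beside 6744 of 20170 genes in either direction, where the reported fit called 4607 of 22249.

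Markers of immune cells were also higher in lesions at 1 month. The 6 macrophage markers summed to 1412 to 4024 CPM in lesions and to 429 to 539 CPM in eutopic uterus, the 7 T cell markers to 138 to 434 CPM and 34.0 to 40.2 CPM, and the 6 B cell markers to 50.9 to 234 CPM and 5.81 to 9.84 CPM. None of these markers was at 0 in all libraries of a group. Lesion replicate 3, with the highest division genes, had 1412, 163 and 50.9 CPM of them, the lowest macrophage and B cell sums of the 4 lesions. Their part in the differences was not tested.

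**Figure D3:**
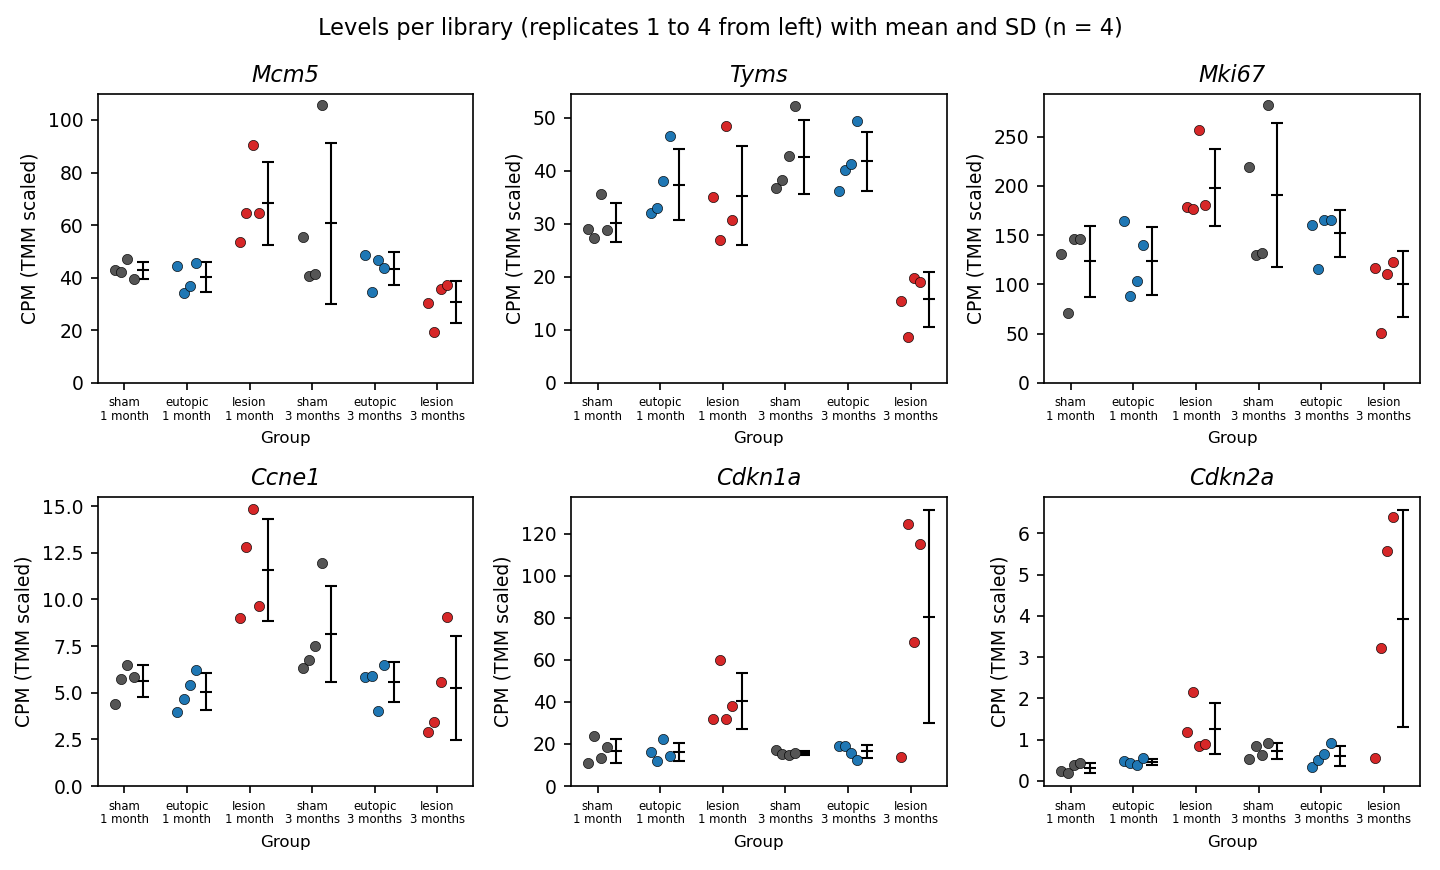
Levels in CPM of an S phase helicase subunit (Mcm5), thymidylate synthase (Tyms), Mki67, cyclin E1 (Ccne1) and the inhibitors Cdkn1a and Cdkn2a in each library, by group, with mean and SD (n = 4) to the right of the points. Tyms lies between 8.55 and 19.8 CPM in lesions at 3 months and at 26.9 CPM or more in every other library, while Cdkn1a and Cdkn2a are high in 3 of those 4 lesions.

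Lesions at 3 months held less RNA of many division genes than eutopic uterus at 3 months, and more of Cdkn1a and Cdkn2a. Of the 52 genes 14 were called lower (26.9%), beside 17.1% of all genes. They were 4 of 18 S phase, 8 of 23 mitotic and 2 of 4 G1 genes. Cdkn1a and Cdkn2a were called higher (3.85% of the 52), beside 23.4% of all genes. None of the 4 factors was called by edgeR, DESeq2 or limma voom, and 0 had an unadjusted p under 0.05, beside 49.1% of all genes. Medians were -0.32 over S phase and -0.65 over mitotic genes, beside 0.04 over all genes.

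Among the 4 S phase genes called lower the largest change was in Tyms, which makes the thymidylate used in DNA. Tyms stood at 36.2, 40.1, 41.2 and 49.4 CPM in eutopic uterus and at 15.5, 8.55, 19.8 and 19.1 CPM in lesions. The groups were far apart, and the difference was -1.41 ± 0.22 (0.377-fold, adjusted p = 7.72e-05), between -1.54 and -1.20 with any 1 library left out. A processed copy of the gene, Tyms-ps, held at most 5 counts in any library. Prim1, which starts each new strand with an RNA primer, stood at 24.3, 31.2, 27.4 and 33.9 CPM in eutopic uterus and at 12.1, 9.04, 17.0 and 15.1 CPM in lesions (-1.14 ± 0.20, adjusted p = 0.000227).

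The helicase subunit gene Mcm7 fell by 0.61 ± 0.19 (adjusted p = 0.0134), from 65.9, 59.5, 71.7 and 73.8 CPM to 52.9, 26.4, 50.2 and 48.2 CPM. Pola1 differed by -0.54 ± 0.20 (adjusted p = 0.0373). Other S phase genes did not pass. Mcm5 stood at 48.7, 34.5, 46.8 and 43.7 CPM in eutopic uterus and at 30.3, 19.4, 35.8 and 37.2 CPM in lesions, with overlap (-0.50 ± 0.25, adjusted p = 0.117). Rrm2 stood at 28.8, 27.0, 28.7 and 40.3 CPM and at 21.3, 11.7, 25.0 and 26.6 CPM, which is below every uterus but not called (adjusted p = 0.0595). Pcna and Cdc6 had -0.22 ± 0.14 and -0.35 ± 0.32 (adjusted p = 0.227 and 0.402). For Pcna, a processed copy (Pcna-ps2) held between 37 and 1212 counts per library, so its reads may be shared.

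Mitotic genes that were called lower at 3 months were Cdc20, Ccnb2, Top2a, Ccna2, Cdk1, Aurkb, Birc5 and Tpx2. Cdc20, which activates the complex that ends metaphase, stood at 25.4, 25.8, 29.6 and 34.6 CPM in eutopic uterus and at 19.6, 4.57, 16.2 and 14.1 CPM in lesions (-1.08 ± 0.36, adjusted p = 0.0204). Ccnb2 stood at 23.1, 27.4, 27.3 and 31.7 CPM and at 17.4, 6.17, 16.3 and 13.7 CPM (-1.03 ± 0.32, adjusted p = 0.0153). In both, every lesion lay below every uterus, and replicate 2 was the lowest by a wide margin.

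Top2a stood at 244, 184, 206 and 183 CPM in eutopic uterus and at 123, 40.5, 121 and 130 CPM in lesions at 3 months (-0.98 ± 0.28, adjusted p = 0.00826). Cdk1, the kinase that drives mitosis, stood at 34.7, 37.9, 35.7 and 42.5 CPM and at 28.0, 8.08, 26.8 and 19.8 CPM (-0.87 ± 0.31, adjusted p = 0.032). Neither pair of groups overlapped. Its cyclin gene Ccnb1 did overlap, at 18.5, 17.8, 19.4 and 21.9 CPM against 21.9, 4.05, 14.98 and 9.22 CPM (-0.63 ± 0.38, adjusted p = 0.194). Mki67 stood at 160, 116, 166 and 165 CPM and at 117, 50.7, 110 and 123 CPM, also with overlap (-0.60 ± 0.29, adjusted p = 0.108).

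Among G1 genes, Ccne2 stood at 16.3, 15.8, 11.8 and 15.2 CPM in eutopic uterus and at 12.5, 5.73, 10.2 and 5.48 CPM in lesions at 3 months (-0.80 ± 0.24, adjusted p = 0.0112), with 1 lesion inside the uterine range. Cdk2, the kinase bound by cyclin E, differed by -0.42 ± 0.15 (adjusted p = 0.0288). Ccne1 and Ccnd1 had -0.09 ± 0.30 and -0.20 ± 0.36 (adjusted p = 0.838 and 0.684), and these became 0.11 and 0.09 without lesion replicate 1. Ccnd1 varied most among these lesions, at 43.4, 77.3, 152 and 235 CPM, while eutopic uterus held 186, 136, 133 and 127 CPM.

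Cdkn1a stood at 19.1, 19.0, 15.5 and 12.3 CPM in eutopic uterus at 3 months and at 14.0, 125, 68.4 and 115 CPM in lesions. Replicate 1, the lesion with ovary markers, lay within the uterine range, and the other 3 lay far above it. The difference was 2.29 ± 0.43 (4.89-fold, adjusted p = 0.000358). Cdkn2a stood at 0.347, 0.519, 0.656 and 0.924 CPM in eutopic uterus and at 0.562, 3.21, 5.58 and 6.38 CPM in lesions (2.68 ± 0.52, 6.4-fold, adjusted p = 0.000468). The division of the 4 lesions was the same for both inhibitors. Cdkn2c stayed uncalled, at 37.7, 29.5, 33.2 and 34.0 CPM against 28.7, 37.4, 26.9 and 30.9 CPM (-0.12 ± 0.15, adjusted p = 0.55).

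Markers of other cells also differed among the lesions at 3 months. Macrophage markers summed to 223, 8835, 3657 and 7767 CPM in lesion replicates 1 to 4 and to 370 to 621 CPM in eutopic uterus. T cell markers summed to 14.0, 251, 217 and 661 CPM in the lesions and to 23.7 to 52.4 CPM in eutopic uterus, and epithelial markers to 124, 47.6, 984 and 716 CPM and to 986 to 1222 CPM. Replicate 1 was thus low in macrophage, T cell and epithelial markers and in Cdkn1a and Cdkn2a, and replicate 2 had the highest skeletal muscle sum and the lowest division genes. The part of this other tissue in the differences was not tested beyond leaving libraries out. Without replicate 2 of the lesions 5 genes were called lower, without eutopic replicate 4 there were 8, and without lesion replicates 1 and 2 there were 8 lower and 3 higher. Leaving out those lesions also moved the median over all genes from 0.04 to -0.09. Calls over all genes in the fits with libraries left out are not given here. From the counts given, a general loss of calls cannot be told apart from a loss among these genes. A fit of the compared groups alone called 2 lower, beside 3267 of 20005 genes in either direction, and Cdkn1a and Cdkn2a were higher in each fit named here.

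**Figure D4:**
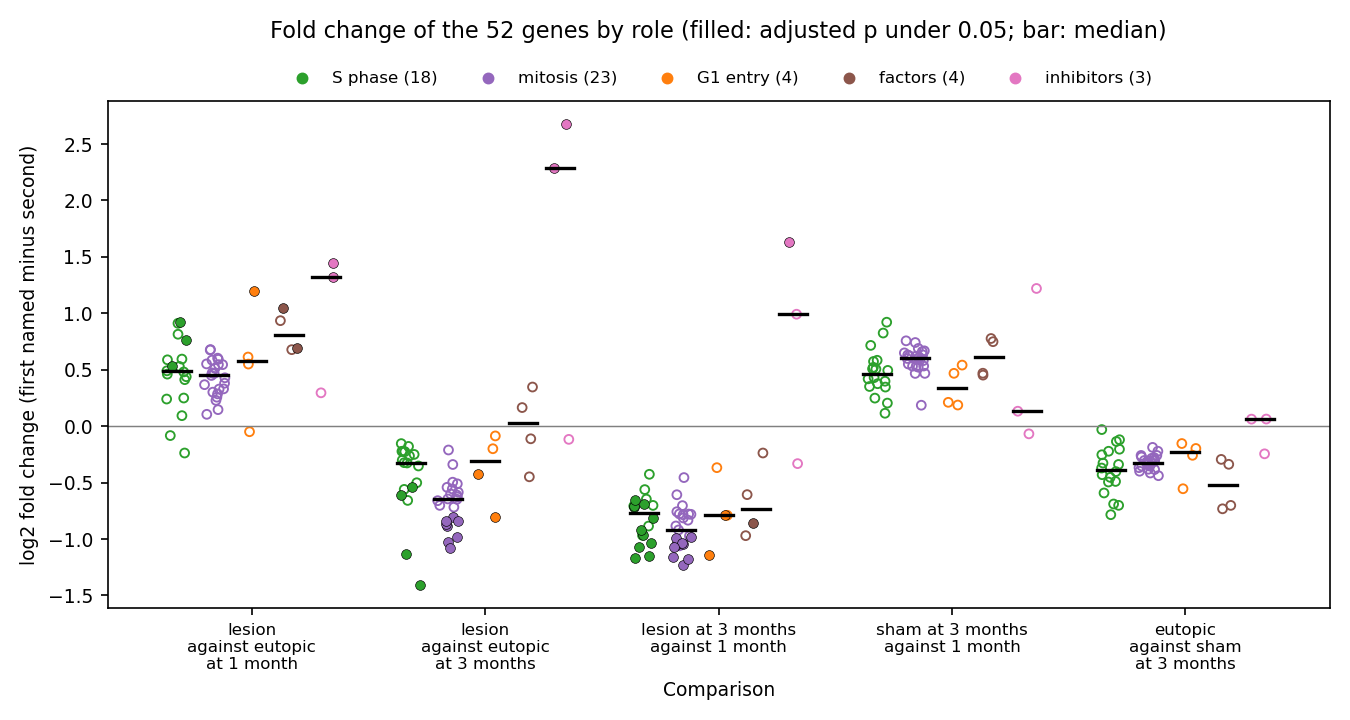
Log2 fold change of each of the 52 genes, by role, in 5 comparisons, with filled points for genes with an adjusted p under 0.05, open points for the others and a bar at the median of the role. Division genes lie mostly above 0 for lesions against eutopic uterus at 1 month and below 0 at 3 months, with S phase and mitotic medians of -0.32 and -0.65, while Cdkn1a and Cdkn2a lie above 0 at both times.

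Lesions at 3 months also held less RNA of S phase and mitotic genes than lesions at 1 month. Of the 52 genes 23 were called lower at 3 months (44.2%), beside 4.43% of all genes, and Cdkn2a was called higher (1.92%), beside 6.52%. The 23 were 11 of 18 S phase, 9 of 23 mitotic, 2 of 4 G1 genes and Foxm1. At an unadjusted p under 0.05, 47 of 52 genes were lower, beside 10.6% of all genes. Medians were -0.77 over S phase and -0.92 over mitotic genes, beside 0.06 over all genes. This comparison shares its lesion libraries with the comparisons above and is not a separate set of samples.

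Mcm5, at 53.4, 64.5, 90.5 and 64.8 CPM in lesions at 1 month and 30.3, 19.4, 35.8 and 37.2 CPM at 3 months, fell by 1.15 ± 0.25 without overlap (adjusted p = 0.00703). Tyms, at 35.0, 26.9, 48.4 and 30.7 CPM at 1 month, fell by 1.16 ± 0.22 (adjusted p = 0.0027) and Cdc6 by 1.07 ± 0.33 (adjusted p = 0.0396). S phase genes that were called ran from -1.16 to -0.65. They cover licensing (Cdc6, Mcm2, Mcm4, Mcm5, Mcm7), strand start (Pola1, Prim1) and nucleotide supply (Rrm1, Rrm2, Tyms, Tk1).

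Top2a fell by 1.23 ± 0.28 (adjusted p = 0.00849), the largest fall among mitotic genes. Aurkb, the chromosome passenger kinase, stood at 23.7, 22.98, 36.6 and 24.3 CPM in lesions at 1 month and at 12.5, 6.64, 14.8 and 13.5 CPM at 3 months (-1.18 ± 0.28, adjusted p = 0.0097). Cdc20 fell by 1.16 ± 0.36 (adjusted p = 0.0413) and Mki67 by 0.98 ± 0.30 (adjusted p = 0.0368). Both had all 4 values at 3 months below all 4 at 1 month. Foxm1, the factor of mitotic genes, fell by 0.86 ± 0.26 (adjusted p = 0.0383), Ccne1 by 1.14 ± 0.30 (adjusted p = 0.0178) and Ccne2 by 0.79 ± 0.24 (adjusted p = 0.0391).

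Cdkn2a rose by 1.64 ± 0.49 between 1 and 3 months (3.11-fold, adjusted p = 0.0379), with replicate 1 at 3 months below all lesions at 1 month and the other 3 above them. Cdkn1a had 0.99 ± 0.41 (adjusted p = 0.126), likewise with replicate 1 at 3 months below all lesions at 1 month and the other 3 above them. Single libraries again moved the count: 5 genes were called lower without lesion replicate 3 at 1 month and 6 without lesion replicate 2 at 3 months. Without lesion replicates 1 and 2 at 3 months it was 3, with medians of -0.60 over S phase and -0.83 over mitotic genes. Calls over all genes in those fits are not given here, but they also changed, with 1278 of 22767 without lesion replicate 1 at 1 month. Limma voom called 6 of the 52 lower, beside 1010 of 22249 genes in either direction, and the fit with only the lesion groups called 0 of the 52 and 0 of all 19979 genes, where the reported fit called 2435 of 22249.

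The lesion-eutopic difference itself changed from 1 to 3 months for 1 of the 52 genes, in the lower direction, beside 0.315% of all genes. The change in Tyms was -1.32 ± 0.30 (adjusted p = 0.0441), from a difference of -0.08 at 1 month to -1.41 at 3 months. It was called without lesion replicate 2 at 1 month and without lesion replicates 1, 3 or 4 at 3 months, and missed the threshold with each of the other 12 libraries left out. At an unadjusted p under 0.05, 41 of 52 genes had a more negative lesion-eutopic difference at 3 months, beside 6.49% of all genes (18 of 18 S phase and 19 of 23 mitotic genes). The change had a median of -0.84 over S phase and -1.17 over mitotic genes, beside 0.06 over all genes.

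Wider lists of the same pathway held 38 further S phase genes, 56 further mitotic genes and 24 further genes of G1 and checkpoints. In the uterus edgeR called none of them, while for sham at 3 months against 1 month 19 of 38 and 36 of 56 were higher at an unadjusted p under 0.05, beside 6.27% of all genes. In lesions against eutopic uterus at 1 month 2 of 38 further S phase genes were called higher (5.26%), beside 12.0% of all genes, and 1 lower (2.63%), beside 8.76%. These were the maintenance methyltransferase gene Dnmt1 (0.70 ± 0.24) and the histone chaperone gene Asf1b (0.70 ± 0.24), and Orc6 of the origin recognition complex (-0.49 ± 0.16). Of the further mitotic genes 1 was called, the separase gene Espl1 (0.92 ± 0.24). Of the G1 and checkpoint genes 7 of 24 were called higher (29.2%) by edgeR and 0 lower (1 at an unadjusted p under 0.05), led by the inhibitor Cdkn2b (2.28 ± 0.35), cyclin D2 (Ccnd2, 1.31 ± 0.18) and the cyclin D kinase Cdk6 (1.09 ± 0.22). With 1 library left out, the calls of Dnmt1, Asf1b and Orc6 were lost in 7, 6 and 6 of 8 fits. That of Espl1 was lost in 1 of 8, and those of Cdkn2b, Ccnd2 and Cdk6 in 0.

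At 3 months 9 of 38 further S phase genes were called lower than in eutopic uterus (23.7%), beside 17.1% of all genes, led by the origin-firing kinase Cdc7 (-1.12 ± 0.18), Orc6 (-0.83 ± 0.16) and Rad51ap1 (-0.79 ± 0.29). Of the further mitotic genes 21 of 56 were called lower (37.5%), beside 17.1% of all genes, led by Pimreg (-1.56 ± 0.33), Ckap2 (-1.44 ± 0.34) and Depdc1a (-1.22 ± 0.36). None of either list was higher by edgeR, also at an unadjusted p under 0.05. G1 and checkpoint genes split, with 7 of 24 higher (29.2%), beside 23.4% of all genes, and 6 lower (25.0%). Those higher were led by Cdkn2b (2.79 ± 0.36), Ccnd2 (1.25 ± 0.18) and the retinoblastoma gene Rb1 (1.11 ± 0.19), so cyclin D2 was high in lesions at both times while cyclin D1 was called at neither. In lesions at 3 months against 1 month 12 of 38 further S phase (31.6%) and 20 of 56 further mitotic genes (35.7%) were called lower, beside 4.43% of all genes, led by Orc1 (-1.26 ± 0.33), Pole (-1.02 ± 0.25) and Rad51ap1 (-0.90 ± 0.29), and by Kif20a (-1.42 ± 0.31), Pimreg (-1.36 ± 0.33) and Ckap2 (-1.36 ± 0.33). G1 and checkpoint genes gave 4 of 24 lower (16.7%), led by E2f7 (-1.04 ± 0.28) and the mitotic brake Wee1 (-0.96 ± 0.17), and 1 higher (4.17%, beside 6.52% of all genes), Ccng1 (0.98 ± 0.31). Wee1 was the 1 gene of these lists whose lesion-eutopic difference changed between the times (-1.004 ± 0.23, adjusted p = 0.0474). That change missed the threshold in 12 of the 16 fits with 1 library left out. For lesions at 3 months against 1 month, Rad51ap1 and Ccng1 lost their calls in 6 of 8 such fits, and the other genes named there in 0 to 2. Against eutopic uterus at 3 months, Rad51ap1 lost its call in 3 of 8 and the other genes named there in 0.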

How the data were processed

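RNA of uterus and lesions was sequenced in 24 libraries. The deposited values are raw read counts per gene for 56691 genes, in mm39 per the submitters' processing notes, which also name bcl2fastq 1.9.0, STAR 2.7.9a and edgeR. For the annotation, the counting mode and strand: not given in the sources used here. The authors applied no scaling to these counts as far as their whole numbers and unequal totals show, and totals were 4.51e+07 to 5.94e+07 per library. Groups and replicate numbers came from the labels.

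Counts were tested with edgeR 4.0.16 in R 4.3.3 (filterByExpr, TMM, glmQLFit and glmQLFTest, Benjamini-Hochberg adjusted p under 0.05). Uterine comparisons were fitted on the 16 uterine libraries (21208 genes) and comparisons with lesions on all 24 (22249 genes), adjusted over all genes tested. The SE is the log2 fold change divided by the square root of F. The index used log2 CPM with a prior count of 2. The fits were also run on counts simulated from the fitted model, with a spread per gene shared by all groups. Such a simulation cannot test the effect of unequal spread between groups, and its outcome is not given here. DESeq2 1.42.0, limma 3.58.1 voom with sample weights, DESeq2 size factors, no filter, other sample sets, a replicate block and leaving out each library were tried as alternatives, and for the index a prior count of 0.5. Leaving out sham replicates 2 and 4 together was added after seeing the data.

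The members and lists were chosen with earlier results of these data known. Any of the 52 genes could be named. Values per library were given for Mki67, Top2a, Ccnb1, Cdk1, Mcm5, Pcna, Rrm2, Ccnd1, Ccne1, Cdkn1a, Cdkn2a and Cdkn2c and for up to 3 called genes per role with the largest changes, and where none was called the S phase and mitotic genes with the highest and lowest values were named. Of the wider lists, up to 3 called genes per comparison were named. Other genes were chosen after their values were seen.

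Libraries with the same replicate number deviated together at a correlation over 0.1 in every pair only for eutopic uterus at 3 months against 1 month (0.202, 0.152, 0.105 and 0.107). The fit with the replicate block called 0 of the 52 genes there too, beside 3 of 20116 genes in either direction. In that fit 12 of the 52 had an unadjusted p under 0.05. The share of all genes at that threshold is not given here, so the 12 cannot be weighed against it.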

Additional observations from a re-analysis of the deposited data

Results flagged for a closer look

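In 14 of 114 groups of 4 libraries tested, the highest or lowest library lay further from the others than the 95% critical value of Dixon's test. Chance exceeds that value in a share of about 0.05 of independent groups. These genes move together in the same 24 libraries, and some were named for their large changes. The 14 are therefore not independent and measure no excess over chance. Lesion replicate 3 at 1 month was such a high library for Mki67 (257 CPM), Top2a (324 CPM), Cdk1 (54.3 CPM), Ccnd1 (289.8 CPM) and Cdc20 (42.4 CPM). Sham replicate 4 at 3 months was one for Cdc6 (30.3 CPM) and Cdc20 (60.3 CPM). Top2a was low in sham replicate 2 at 1 month (152 CPM) and in lesion replicate 2 at 3 months (40.5 CPM). In eutopic uterus at 3 months Mki67 was low in replicate 2 (116 CPM), Rrm2 was high in replicate 4 (40.3 CPM) and Ccnd1 was high in replicate 1 (186 CPM). In eutopic uterus at 1 month replicate 4 was high for Cdkn2c (35.5 CPM) and Cdc20 (34.0 CPM).

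Tyms was the 1 gene of the 52 whose lesion-eutopic difference differed between 1 and 3 months by the interaction term of edgeR's quasi-likelihood test, at -1.32 (adjusted p = 0.0441).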

How the results depend on the processing

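Of the alternative values computed, 1786 kept their direction and their side of the threshold or stayed within the spread between replicates, 308 kept direction but lost the call, 23 gained one, 30 moved and 36 reversed, and the cause was not tested. For sham at 3 months against 1 month, where 0 genes were called, DESeq2 called 1 higher and limma voom 2. Over all genes they called 159 of 21130 and 1036 of 21208 in either direction. For lesions against eutopic uterus at 1 month, 8 genes were called higher in the reported fit, 2 without the filter on low counts, 25 by limma voom and 26 with only the compared groups. Calls over all genes, in either direction, were 4607 of 22249, 3410 of 40184, 10013 of 22249 and 6744 of 20170 in the same order. For lesions against eutopic uterus at 3 months, 14 were called lower in the reported fit, 9 by limma voom, 2 with only the compared groups and 8 without lesions 1 and 2. Over all genes the reported fit called 9013 of 22249 in either direction, limma voom 8366 of 22249 and the compared groups alone 3267 of 20005. For lesions at 3 months against 1 month, 23 were called lower in the reported fit, 6 by limma voom, 0 with only the compared groups and 3 without lesions 1 and 2. Over all genes the reported fit called 2435 of 22249 in either direction, limma voom 1010 of 22249 and the compared groups alone 0 of 19979. In the same comparison 1 gene was called higher in the reported fit, 0 without the filter and with only the compared groups, and 2 by limma voom and without lesions 1 and 2. For the change of the lesion-eutopic difference, 1 was called lower in the reported fit, 5 by DESeq2 and 0 by limma voom and without the filter. Calls over all genes, in either direction, were 171 of 22249, 822 of 21890, 468 of 22249 and 115 of 40184 in that order.

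In each of the other comparisons at least 1 same-number correlation was 0.1 or less. The labels state no pairing, so the replicate block only describes a shared number. With the block, fitted on the compared groups alone, 23 genes were called higher for lesions against eutopic uterus at 1 month. Over all genes that fit called 6834 of 20170 in either direction. At 3 months it called 0 higher and 0 lower, beside 608 of 20005 genes in either direction. For lesions at 3 months against 1 month it called 0 higher and 0 lower, beside 0 of 19979 genes. For the change of the lesion-eutopic difference it called 0 lower, beside 1 of 21627 genes in either direction. For lesions against eutopic uterus at 1 month every lesion library correlated best with its own number (0.191, 0.107, 0.179 and 0.0735). At 3 months lesion replicates 1, 2 and 4 did so (0.116, 0.0994 and 0.337), and replicate 3 did not (0.00343). These matches are a hint from the data and not the design, and whether they mark the same mice was not tested. The block called 0 of the 52 genes in the uterine comparisons, as the reported fits did, beside 0 to 3 of all genes. It moved the change of the eutopic-sham difference in Pola1 to 0.0084.

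Leaving out 1 library at a time gave 0 to 1 genes called higher for sham at 3 months against 1 month, 1 to 6 higher for lesions against eutopic uterus at 1 month and 5 to 17 lower at 3 months. It gave 0 to 2 higher and 5 to 30 lower for lesions at 3 months against 1 month, and 0 to 6 lower for the change of the lesion-eutopic difference. Calls over all genes changed too, for example from 4607 to 2644 for lesions against eutopic uterus at 1 month without eutopic replicate 2. The median change of the eutopic-sham difference over S phase genes was -0.53 to -0.060 in these fits and -0.093 by limma voom.

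Reversals all concerned genes that were not called. For eutopic against sham at 3 months, Tyms ran from -0.12 to 0.090 and Ccnb2 from -0.27 to 0.024 with 1 library left out, and limma voom gave 0.041 and 0.044. For sham at 3 months against 1 month, Pola1 ran from -0.056 to 0.24 and Top2a from -0.0014 to 0.30, limma voom gave -0.17 and -0.12, and leaving out sham 2 and sham 4 together gave -0.073 and -0.14. For eutopic at 3 months against 1 month, Mcm2 ran from -0.12 to 0.043 and Top2a from -0.057 to 0.19. For the change of the eutopic-sham difference, Pola1 ran from -0.19 to 0.15 and Top2a from -0.25 to 0.053, with 0.31 and 0.12 by limma voom. For lesions against eutopic uterus at 1 month, Tyms ran from -0.28 to 0.030. At 3 months Ccnd1 ran from -0.68 to 0.089 and Ccne1 from -0.48 to 0.11, with 0.095 and 0.18 by limma voom and 0.38 and 0.36 without lesions 1 and 2. Among members named here Cdkn2a had the lowest levels, from 0.195 to 6.38 CPM, which limits its precision.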

Other observations

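A processed copy of Pcna, Pcna-ps2, which was chosen after its values were seen, held 37 to 1212 counts per library. It exceeded 500 counts in 3 libraries, sham replicates 2 and 3 at 1 month and sham replicate 4 at 3 months. Copies of other members held few counts, with at most 21 for Ccnb1-ps, 13 for Ccnb2-ps and 5 for Tyms-ps.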
